A study of Arabidopsis thaliana with 27 samples.

Results

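The genes described here had transcript levels at least 4-fold higher in Arabidopsis rosettes at 8 h than at 0 h while CO2 stayed high, and a move to ambient CO2 for those 8 h left them within 2-fold of the level in high CO2. Transcripts were measured on 27 ATH1-type arrays, on which each gene is read by a set of short probes (a probe set). A probe set was a member where the mean log2 signal at 8 h in high CO2 minus that at 0 h was at least 2 in each of the 3 genotypes, and the mean at 8 h in ambient CO2 minus that at 8 h in high CO2 lay within 1 of 0 in each. This gave 102 of 22746 probe sets. The probe sets of COR15A, COR15B, COR27, COR47 and LTI30 were to be left out by the rule. None of these 5 met its other parts, so leaving them out removed no member. The array annotation paired 51 members with 1 gene each, 1 with several genes and 50 with none, and the last kind is counted in every total and named only by its probe set ID. The differences between 8 h and 0 h and between ambient and high CO2 chose the members, so they are given as descriptions with no test: the members were selected on mean log2 signals of all 27 arrays.

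The plants were the catalase-deficient mutant cat2-2, the line GO5, which makes glycolate oxidase in its chloroplasts, and wild type Col-0 (WT). The promoter that drives the GO5 transgene is not given in the sources used here, and each altered genotype is 1 line. All plants grew in soil at 3000 ppm CO2 with 16 h of light and 8 h of dark for 3 weeks. The temperature was 22 °C by day and 18 °C at night, and the light was 75 µmol per square metre per second. Each genotype was harvested 8 h after transfer to ambient CO2 (380 ppm), 8 h later without transfer, still at 3000 ppm (high CO2), and at 0 h, with 3 biological replicates of 2 pooled rosettes in each of the 9 groups. The labels count the hours from the transfer and do not give the time of day. Values are log2 signals, and the values of a group are listed in the order of its replicate numbers 1, 2 and 3.

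Many leaf transcripts cycle over the day under the joint control of light, sugars and the circadian clock, a set of genes that repress and activate each other in turn. Among clock genes, GIGANTEA (GI) is known for its peak late in the day and for its part in measuring day length, and COR28 for a small protein that acts in the clock and in the response to cold. Starch that leaves store in the light is broken down in the dark by enzymes whose transcripts also cycle.

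Array medians lay between 5.28 and 5.52. The 3 green leaf markers measured (RCA, SBPASE and PRK, of the Calvin-Benson cycle) had group means between 10.80 and 13.35, and the 2 root markers measured (EXPA7 and EXPA18) between 2.49 and 3.44. Flower and seed markers were not among the named probe sets. The mean correlation with the other arrays of the group was lowest for the 3 WT ambient arrays (0.969, 0.974 and 0.980), and next for cat2-2 ambient replicate 3 (0.982). RNA quality was read from the GAPDH controls as the signal at the 3' end minus that at the 5' end, which averaged 1.60 ± 0.11 in cat2-2 and 1.49 ± 0.15 in GO5 at ambient CO2, against 2.12 ± 0.61 in WT (SD, n = 3 each).

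Over the members, the difference between 8 h in high CO2 and 0 h had a median of 2.89 log2 units in cat2-2, 2.93 in GO5 and 2.83 in WT. Averaged over the genotypes it ran from 2.09 to 6.39 with a median of 2.86, which is 7.25-fold. The mean difference was at least 3 for 41 members, at least 4 for 17 and at least 5 for 6, and 28 members lay under 2.5. The range of a member's 3 differences had a median of 0.26 log2 units, stayed within 0.5 for 93 of 102 members and reached 0.84 at most. The rule asks for a difference of at least 2 in every genotype, which 119 of the 204 probe sets that reached it in any genotype met, so the likeness of the genotypes is partly set by the rule. At 0 h 20 members averaged under 4, where the lower quartile of all probe sets was 3.16, and differences against signals that low are not read as exact folds. The 3' minus 5' difference of GAPDH was also higher at 8 h in high CO2 than at 0 h, by 0.15 in cat2-2 (exact permutation p = 0.3), 0.34 in GO5 and 0.56 in WT (exact permutation p = 0.1 each). That of actin changed by -0.09 in cat2-2, 0.19 in GO5 and 0.31 in WT (exact permutation p = 0.5, 0.2 and 0.1). The part of RNA quality in these differences was not tested. The arrays of 8 h in high CO2 and of 0 h did not overlap for any member in any genotype. Over all probe sets 34.1% did not overlap in cat2-2, 36.6% in GO5 and 30.9% in WT, and since the rule used this contrast nothing is read from the comparison. In whole rosettes more cells of a type and more RNA per cell cannot be told apart.

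**Figure D1:**
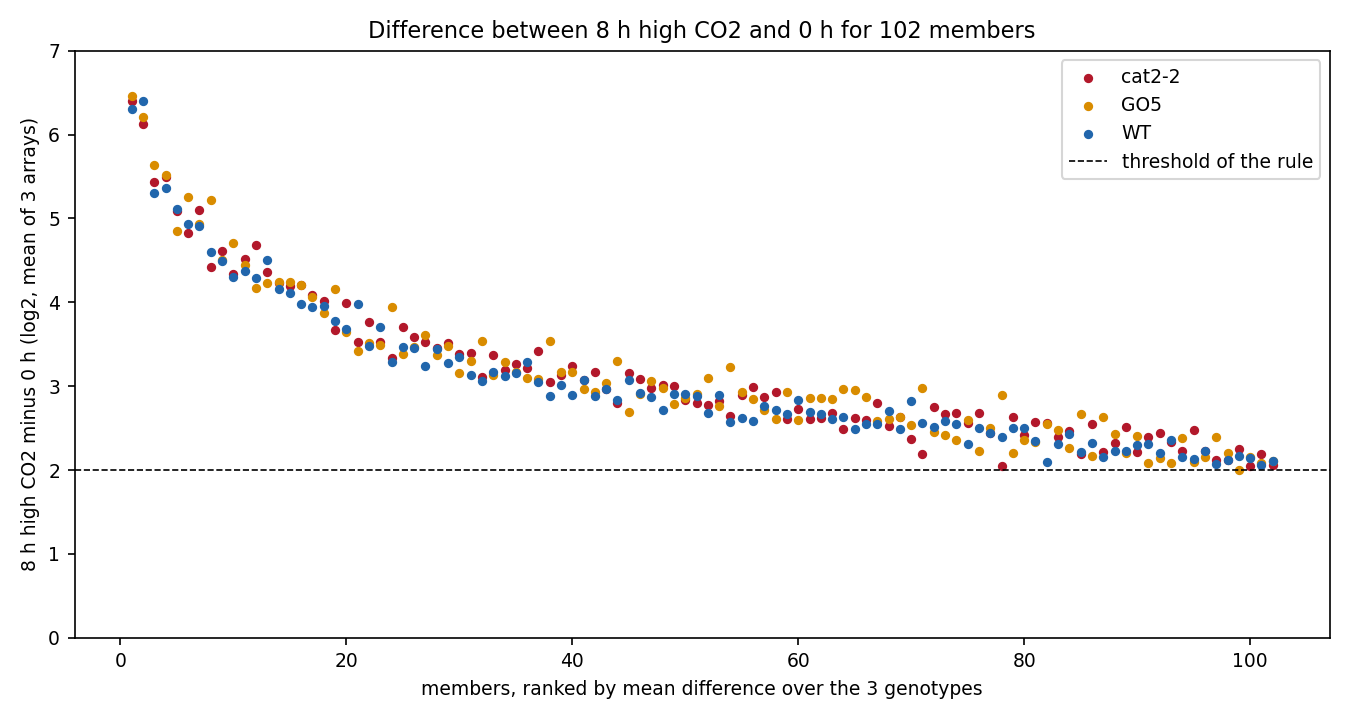
Difference in log2 signal between 8 h in high CO2 and 0 h (y axis, mean of 3 arrays) for the 102 members, ranked by their mean over genotypes (x axis), with a point for cat2-2, GO5 and WT each and the threshold of 2 as a dashed line. The means over genotypes run from 2.09 to 6.39, and the 3 points of a member, all at least 2 by the rule, have a median range of 0.26.

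The members from the clock list were GI and COR28. GI read 8.35, 8.06 and 8.41 at 8 h in ambient CO2 and 8.63, 8.68 and 8.14 at 8 h in high CO2 in cat2-2, against 4.74, 4.53 and 5.59 at 0 h. In GO5 GI read 8.88, 8.86 and 8.80 at 8 h in ambient and 8.62, 8.35 and 8.11 in high CO2, against 4.37, 4.49 and 5.77 at 0 h. In WT GI read 7.08, 8.70 and 8.35 at 8 h in ambient and 8.32, 8.26 and 8.48 in high CO2, against 4.17, 4.41 and 5.36 at 0 h. Every array at 8 h lay above every array at 0 h, replicate 3 was the highest of the 3 arrays at 0 h in each genotype, and WT ambient replicate 1 was the lowest array at 8 h. The mean difference of GI between 8 h in high CO2 and 0 h was 3.53 ± 0.38 log2 units in cat2-2, 3.49 ± 0.38 in GO5 and 3.70 ± 0.38 in WT (SE of the fit, n = 3 arrays per group).

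COR28 (AT4G33980) read 8.00, 7.99 and 6.65 at 8 h in ambient CO2 and 8.28, 8.05 and 5.62 at 8 h in high CO2 in cat2-2, against 3.23, 3.21 and 2.93 at 0 h. In GO5 COR28 read 8.69, 8.64 and 6.55 at 8 h in ambient and 8.09, 8.09 and 5.57 in high CO2, against 2.58, 3.24 and 3.19 at 0 h. In WT COR28 read 8.31, 8.47 and 7.08 at 8 h in ambient and 7.87, 8.10 and 5.45 in high CO2, against 2.95, 2.99 and 3.14 at 0 h. In all 6 groups at 8 h replicate 3 was the lowest array, while at 0 h the 3 replicates lay within 1 log2 unit of each other. The mean difference between 8 h in high CO2 and 0 h was 4.19 ± 0.77 log2 units in cat2-2, 4.24 ± 0.77 in GO5 and 4.12 ± 0.77 in WT.

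CCL (AT3G26740) encodes a transcript known to be under clock control through its stability. CCL read 11.74, 11.74 and 11.56 at 8 h in ambient CO2 and 12.03, 11.89 and 11.58 in high CO2 in cat2-2, against 8.40, 7.38 and 6.69 at 0 h. In GO5 CCL read 11.80, 11.35 and 11.48 at 8 h in ambient and 12.06, 12.21 and 11.53 in high CO2, against 8.07, 6.98 and 6.64 at 0 h. In WT CCL read 12.04, 11.84 and 11.70 at 8 h in ambient and 11.95, 12.13 and 11.61 in high CO2, against 7.56, 8.69 and 6.52 at 0 h. Its arrays at 8 h lay within a narrow range and those at 0 h were spread wide, with replicate 3 the lowest at 0 h in each genotype, opposite to GI. Another member with a domain of the clock and flowering regulators, AT1G07050 (a CCT motif), differed by 5.09 log2 units in cat2-2, 4.86 in GO5 and 5.12 in WT.

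**Figure D2:**
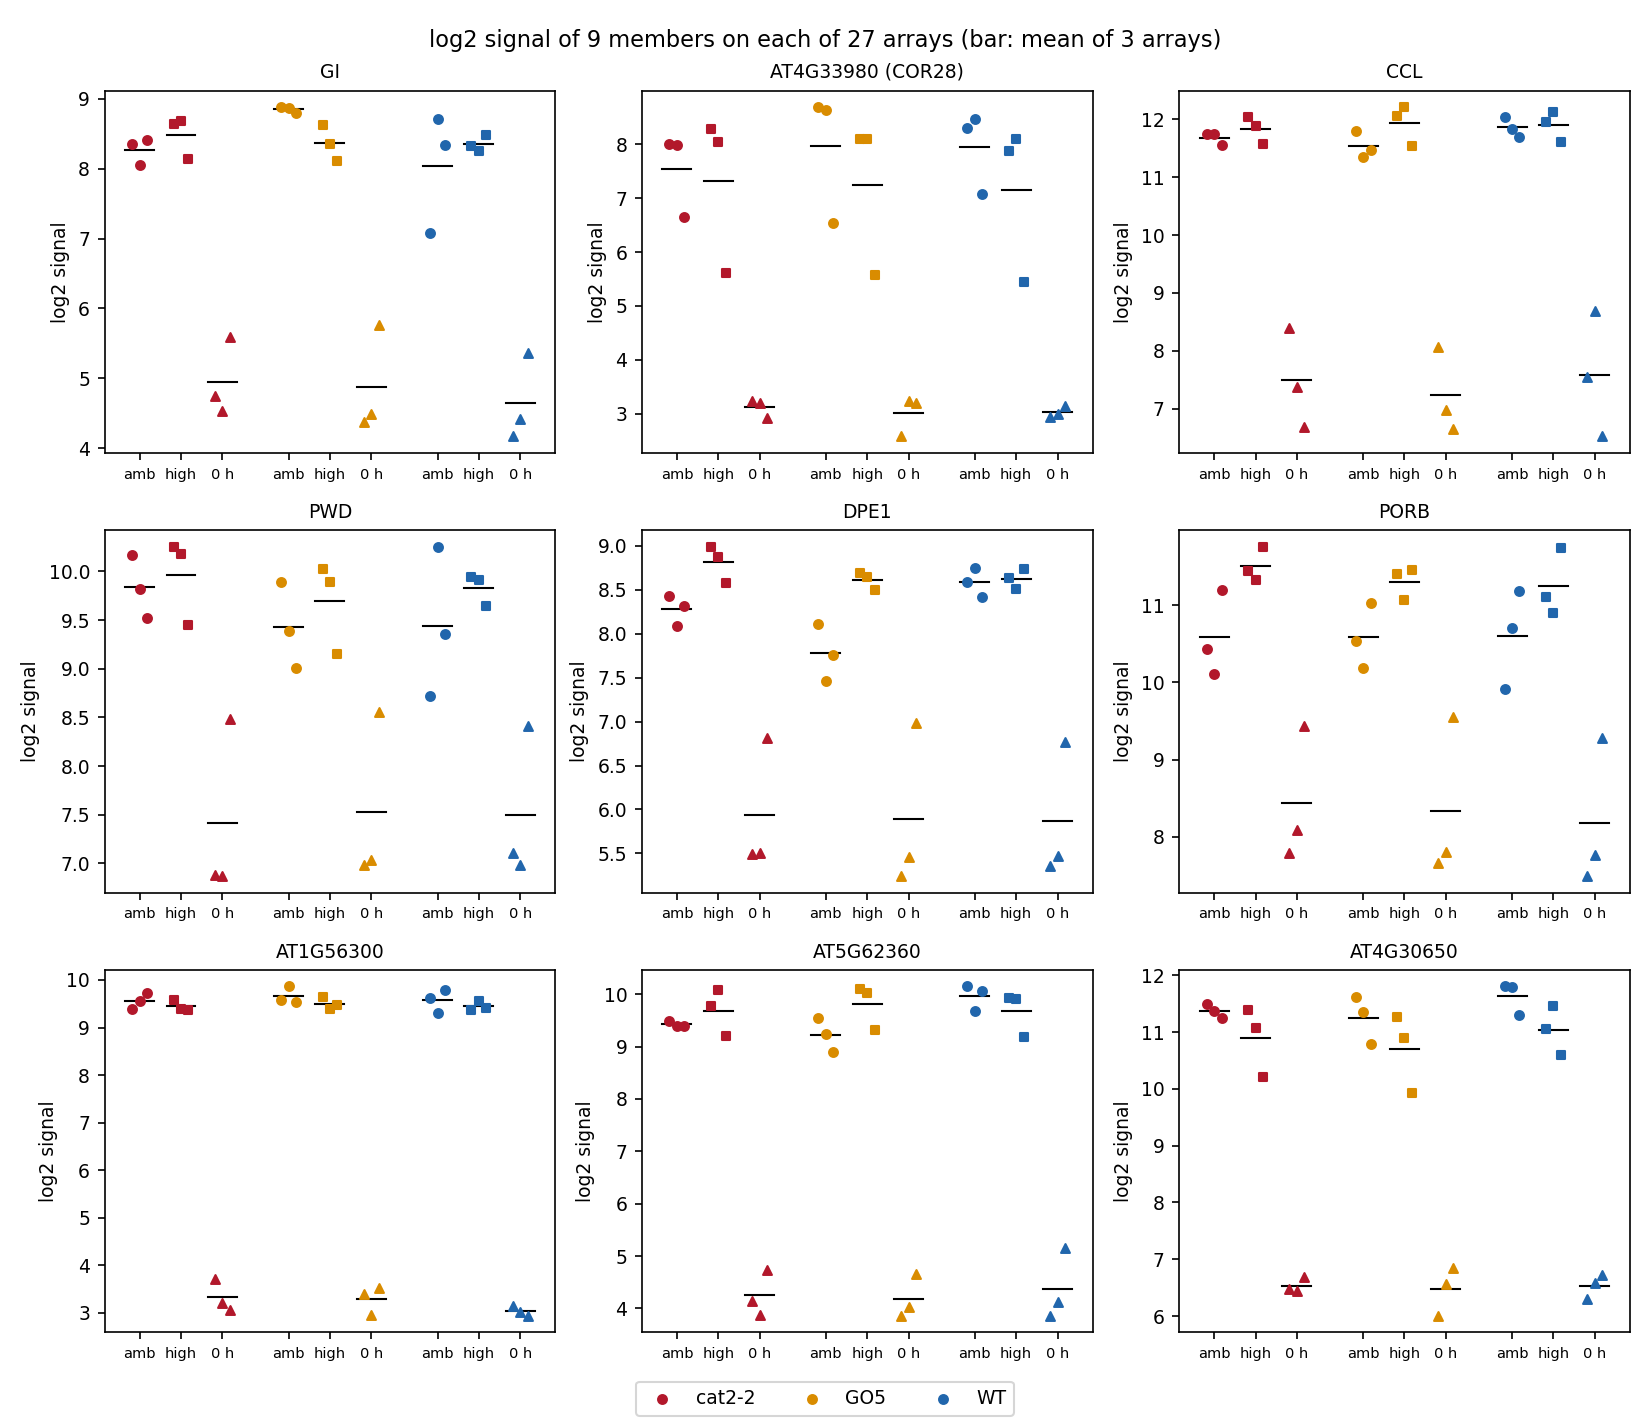
Log2 signal (y axis) of 9 members on each array, by genotype (cat2-2, GO5, WT) and condition (8 h in ambient CO2, 8 h in high CO2, 0 h), with replicates 1, 2 and 3 from left to right and a bar at the mean of 3 arrays. All 8 h arrays lie above all 0 h arrays. At 0 h replicate 3 is the highest array in each genotype for GI, PWD, DPE1, PORB, AT5G62360 and AT4G30650, and the lowest for CCL. At 8 h in high CO2 it is the lowest in each genotype for COR28, CCL, PWD, AT5G62360 and AT4G30650.

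Both measured genes of the starch breakdown list (2 of 15 listed) were members. The rule chose them by their difference between 8 h and 0 h, so nothing is read from them about the list as a whole. PWD (AT5G26570), the phosphoglucan water dikinase that phosphorylates the surface of starch granules, read 10.17, 9.82 and 9.52 at 8 h in ambient and 10.25, 10.18 and 9.44 in high CO2 in cat2-2, against 6.88, 6.87 and 8.48 at 0 h. In GO5 PWD read 9.90, 9.39 and 9.01 at 8 h in ambient and 10.03, 9.90 and 9.15 in high CO2, against 6.99, 7.04 and 8.56 at 0 h. In WT PWD read 8.72, 10.25 and 9.36 at 8 h in ambient and 9.94, 9.91 and 9.64 in high CO2, against 7.11, 6.99 and 8.41 at 0 h. At 0 h replicate 3 exceeded the other two by over 1 log2 unit in each genotype, and the lowest array at 8 h was WT ambient replicate 1. The mean difference between 8 h in high CO2 and 0 h was 2.55 ± 0.48 log2 units in cat2-2, 2.16 ± 0.48 in GO5 and 2.33 ± 0.48 in WT.

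DPE1 (AT5G64860), the plastid enzyme that recycles the short glucans left by starch breakdown, read 8.43, 8.08 and 8.32 at 8 h in ambient and 8.99, 8.87 and 8.58 in high CO2 in cat2-2, against 5.50, 5.50 and 6.82 at 0 h. In GO5 DPE1 read 8.12, 7.46 and 7.76 at 8 h in ambient and 8.69, 8.64 and 8.49 in high CO2, against 5.24, 5.45 and 6.99 at 0 h. In WT DPE1 read 8.59, 8.75 and 8.42 at 8 h in ambient and 8.64, 8.51 and 8.73 in high CO2, against 5.36, 5.47 and 6.76 at 0 h. DPE1 showed the same high replicate 3 at 0 h as PWD. The difference between ambient and high CO2 at 8 h was -0.54 ± 0.39 log2 units in cat2-2, -0.83 ± 0.39 in GO5 and -0.04 ± 0.39 in WT.

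PORB, which reduces protochlorophyllide in the light on the way to chlorophyll, read 10.44, 10.11 and 11.20 at 8 h in ambient and 11.44, 11.34 and 11.76 in high CO2 in cat2-2, against 7.79, 8.08 and 9.43 at 0 h. In GO5 PORB read 10.54, 10.19 and 11.03 at 8 h in ambient and 11.40, 11.07 and 11.46 in high CO2, against 7.66, 7.80 and 9.55 at 0 h. In WT PORB read 9.92, 10.71 and 11.18 at 8 h in ambient and 11.10, 10.90 and 11.75 in high CO2, against 7.49, 7.76 and 9.28 at 0 h. PORB was among the 4 named members with the widest CO2 difference: ambient minus high CO2 was -0.93 in cat2-2, -0.72 in GO5 and -0.64 in WT, each ± 0.50 log2 units (SE of the fit). Replicate 3 was again the highest array of each genotype at 0 h.

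AT1G56300, a DnaJ-type (J-domain) co-chaperone, read 9.40, 9.56 and 9.72 at 8 h in ambient and 9.58, 9.40 and 9.38 in high CO2 in cat2-2, against 3.71, 3.21 and 3.06 at 0 h. In GO5 AT1G56300 read 9.59, 9.86 and 9.54 at 8 h in ambient and 9.65, 9.40 and 9.47 in high CO2, against 3.39, 2.96 and 3.53 at 0 h. In WT AT1G56300 read 9.62, 9.31 and 9.80 at 8 h in ambient and 9.38, 9.56 and 9.40 in high CO2, against 3.15, 3.03 and 2.94 at 0 h. The mean difference between 8 h in high CO2 and 0 h was 6.25 log2 units, with no replicate apart from the others, and its low group means at 0 h, 3.04 to 3.33, mean that the size is not an exact fold. Only the probe set 249850_at, which is not paired with a gene here, had a wider mean difference, at 6.39.

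AT5G62360, of the family of invertase and pectin methylesterase inhibitors that act at the cell wall, averaged 9.43 ± 0.05 at 8 h in ambient and 9.68 ± 0.44 in high CO2 in cat2-2, against 4.25 ± 0.45 at 0 h (SD, n = 3 each). In GO5 AT5G62360 averaged 9.23 ± 0.32 at 8 h in ambient and 9.82 ± 0.43 in high CO2, against 4.18 ± 0.43 at 0 h. In WT AT5G62360 averaged 9.96 ± 0.25 at 8 h in ambient and 9.68 ± 0.43 in high CO2, against 4.38 ± 0.68 at 0 h. Its neighbour on chromosome 5, AT5G62350 of the same family, was also a member, with a difference of 2.065 in cat2-2, 2.107 in GO5 and 2.103 in WT that put it next to the threshold.

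AT4G30650 and AT4G30660, neighbours on chromosome 4 that encode small membrane proteins of the type induced by low temperature and salt, were both members. AT4G30650 averaged 11.37 ± 0.12 at 8 h in ambient and 10.89 ± 0.61 in high CO2 in cat2-2, against 6.54 ± 0.14 at 0 h (SD, n = 3 each). The difference between 8 h in high CO2 and 0 h was 4.36 log2 units in cat2-2, 4.23 in GO5 and 4.51 in WT for AT4G30650. For AT4G30660 it was 4.09 in cat2-2, 4.07 in GO5 and 3.94 in WT. The members paired with 1 gene lay on all 5 chromosomes, with 14, 6, 7, 12 and 12 genes on chromosomes 1 to 5, and these 2 pairs were the only adjacent genes among them in the TAIR10.1 gene order. WLIM2a and AT2G39920 had 1 gene between them.

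Other members with wide differences belong to several families. AT4G16146, of the family related to the phosphoprotein ARPP-19, differed by 5.49 in cat2-2, 5.52 in GO5 and 5.36 in WT. AT3G62550, of the universal stress protein type, differed by 5.10 in cat2-2, 4.93 in GO5 and 4.91 in WT. AT2G39920, an acid phosphatase of the HAD superfamily, differed by 4.61 in cat2-2, 4.50 in GO5 and 4.50 in WT, against low 0 h means of 2.23, 2.39 and 2.42, and these sizes are likewise not exact folds. AT3G47160, a RING-type protein, differed by 3.67, 4.16 and 3.77 in the same order. The sizes of these 4 genes varied among genotypes by less than 0.5 log2 units.

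At the limits of the rule only probe sets paired with 1 gene were ranked, and some other members lay closer than some of those named. At the threshold, the members of this kind with the smallest of their 3 differences just inside it were AT1G67660 (2.002 in GO5), AT5G62350 (2.06 in cat2-2), AT5G27930 of the protein phosphatase 2C family (2.06 in WT) and AT4G05150 (2.07 in WT). Just outside it lay AT5G62720 (1.98 in WT), AT1G48330 (1.98 in GO5), AT5G16380 (1.97 in WT) and AT1G22570 (1.93 in cat2-2), which met every other part of the rule. At the limit of the CO2 difference, AT4G33490, an aspartyl protease (-0.999 in cat2-2 and -0.998 in GO5), AT1G64890, a membrane transporter (0.95 in WT), PORB (-0.93 in cat2-2) and AT1G70420 (0.85 in GO5) lay inside. AT4G01130 (-1.004 in GO5), AT1G12845 (-1.06 in GO5) and AT2G47890 (1.98 in GO5) lay outside.

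Most listed genes of related pathways were not paired with a probe set here. The lists were written with earlier results of these data known. In the list of afternoon and evening clock genes 3 of 14 were measured: GI and COR28 were members, and COR27, which the rule leaves out, rose in all 3 genotypes (4.33 in cat2-2, 4.35 in GO5 and 4.56 in WT, each ± 1.06, limma adjusted p = 0.00756, 0.00654 and 0.00496 in that order). At an adjusted p under 0.05, limma called 12.5% of all probe sets between 8 h in high CO2 and 0 h in cat2-2, 13.9% in GO5 and 13.4% in WT. GI and COR28 were chosen by this same difference, and the rule names COR27. Nothing is therefore read from the list's median or from the p-values of COR27. The measured morning clock gene RVE6 (1 of 11 listed) did not pass, at -0.30 in cat2-2, -0.19 in GO5 and -0.29 in WT.

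Both measured genes of the photoperiod and light list (2 of 20) fell with time, with medians of -3.20 in cat2-2, -3.21 in GO5 and -3.19 in WT, against medians over all probe sets between -0.02 and 0.01. CDF5, a repressor of flowering that GI helps to remove, changed by -1.99 in cat2-2, -2.10 in GO5 and -2.29 in WT, each ± 0.23 (limma adjusted p = 2.27e-06 or less). The light signalling factor HYH changed by -4.42 in cat2-2, -4.32 in GO5 and -4.09 in WT, each ± 0.47 (limma adjusted p = 2.47e-06 or less). None of the measured genes of starch synthesis (2 of 12 listed), low-carbon markers (1 of 11), cell wall expansion (3 of 12) and ribosome assembly (4 of 12) passed limma on this contrast in any genotype. All 4 measured genes of the cold and dehydration list (of 14) rose in each genotype with a limma adjusted p of 0.00909 or less, and these are 4 of the 5 genes the rule leaves out. Since the rule names these genes and uses this contrast, nothing is read from their p-values. In the assimilation list the 1 measured gene of 12, the sulfite reductase SIR, changed by -0.41 ± 0.11 in GO5 (limma adjusted p = 0.0147), and the differences of -0.05 in cat2-2 and -0.17 in WT did not pass. Of the 3 leaf markers, SBPASE fell in each genotype, by 0.82 in cat2-2, 0.98 in GO5 and 0.89 in WT (limma adjusted p = 0.00194 or less). RCA fell by 0.51 in GO5 and 0.41 in WT (limma adjusted p = 0.00954 and 0.0376) and PRK by 0.55 in GO5 and 0.51 in WT (limma adjusted p = 0.0147 and 0.0270). In cat2-2 the values of -0.38 for RCA and -0.43 for PRK did not pass (limma adjusted p = 0.0594 and 0.0657).

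The move to ambient CO2 left the medians of the members near 0: ambient minus high CO2 at 8 h was -0.04 log2 units in cat2-2, 0.09 in GO5 and 0.15 in WT. Being unmoved by CO2 holds only as far as the rule states it. For 54 of the 102 members the difference lay within 0.5 in each genotype, and for the other 48 it passed 0.5 in at least 1 genotype. The sign was positive in all 3 genotypes for 45 members, negative in all 3 for 25 and mixed for 32. Only 5 members exceeded 0.5 upward in all 3 genotypes and 2 downward.

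**Figure D3:**
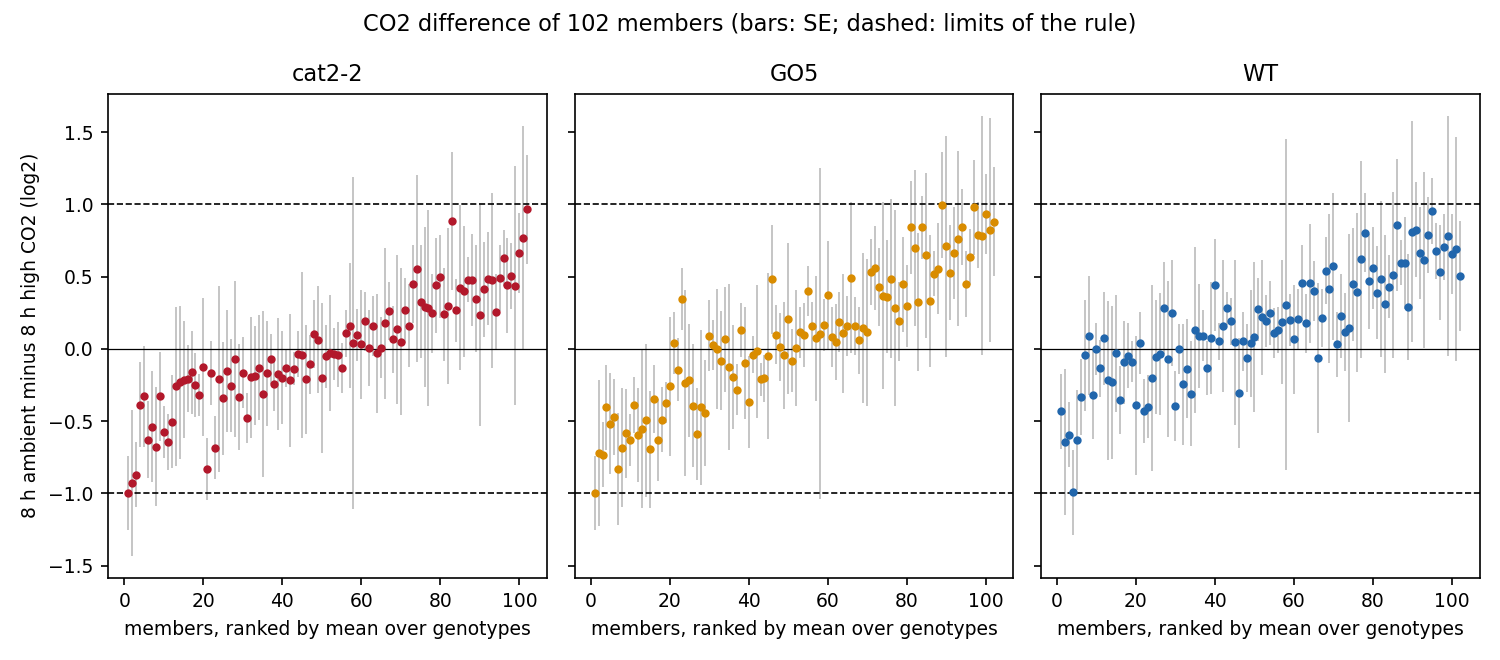
Difference in log2 signal between ambient and high CO2 at 8 h (y axis, mean ± SE of the fit) for the 102 members in cat2-2, GO5 and WT, ranked by the mean over genotypes (x axis), with the limits of the rule as dashed lines. Members fill the allowed band on both sides of 0, with medians of -0.04, 0.09 and 0.15.

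The means of PWD and DPE1 were lower in ambient CO2 in each genotype, COR28 was higher in each, and GI had no common sign. In WT the difference of DPE1 was only -0.04 ± 0.39 log2 units. PWD differed between ambient and high CO2 by -0.13 in cat2-2, -0.26 in GO5 and -0.39 in WT, each ± 0.48 log2 units. COR28 differed by 0.23 in cat2-2, 0.71 in GO5 and 0.81 in WT, each ± 0.77. GI differed by -0.21 in cat2-2, 0.48 in GO5 and -0.31 in WT, each ± 0.38. Most values of these genes were smaller than their error. Larger than it were COR28 in WT, GI in GO5 and DPE1 in cat2-2 (-0.54 ± 0.39) and GO5 (-0.83 ± 0.39). The rule used this difference, so no test was made of it. The WT values of GI and PWD rest on the low WT ambient replicate 1. AT1G64890 differed by 0.49 in cat2-2, 0.45 in GO5 and 0.95 in WT, and its 3 WT arrays read 8.34, 8.15 and 8.02 at 8 h in ambient, against 7.16, 7.32 and 7.16 in high CO2. AT4G33490 read 7.16, 7.05 and 6.77 at 8 h in ambient CO2 in cat2-2, against 8.32, 8.14 and 7.52 in high CO2. In WT the arrays of the 2 conditions did not overlap for AT1G64890, nor for 15.8% of all probe sets. In cat2-2 they did not overlap for AT4G33490, nor for 31.3% of all. Both genes were named for their wide CO2 difference, so nothing is read from this.

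The rule sets no limit on the difference between genotypes itself, and that difference was tested. Its limit on ambient minus high CO2 in each genotype leaves out probe sets that moved at ambient CO2, so a share of calls lower than over all probe sets is partly set by the rule, and nothing is read from it. Averaged over the 3 conditions, limma called 0 members in cat2-2 minus WT, against 0.0703% of all probe sets. It called 0 members in GO5 minus WT, against 2.56% of all, and 0 members in GO5 minus cat2-2, against 1.29% of all. At an unadjusted p under 0.05 the members numbered 3, 6 and 0 in the same order of contrasts, or 2.94%, 5.88% and 0% of them, against 3.90%, 17.0% and 13.0% of all probe sets. The differences of the members ran from -0.30 to 0.30 log2 units in cat2-2 minus WT, from -0.46 to 0.50 in GO5 minus WT and from -0.29 to 0.34 in GO5 minus cat2-2. The lowest adjusted p of a member was 0.417, 0.122 and 0.439 in that order.

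In this fit the members had larger standard errors than most probe sets. The median standard error of these averaged differences was 0.185 log2 units over the members and 0.087 over all probe sets, and the median 95% confidence interval of a member reached 0.385 to either side. For a typical member a difference under that size would not pass an unadjusted p under 0.05 in this fit. A missing call thus does not show that the genotypes were alike. The fit has no term for the replicate number, so deviations that arrays of a number share across genotypes count as error. With the number as a block within each condition, limma called 4 members in GO5 minus WT averaged over conditions (3.92%, against 6.87% of all probe sets). The lowest unadjusted p of a member belonged to AT2G39920, at -0.25 in cat2-2 minus WT (95% confidence interval -0.39 to -0.12, limma adjusted p = 0.417). In GO5 minus WT it was -0.20 (-0.34 to -0.06, limma adjusted p = 0.122).

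**Figure D4:**
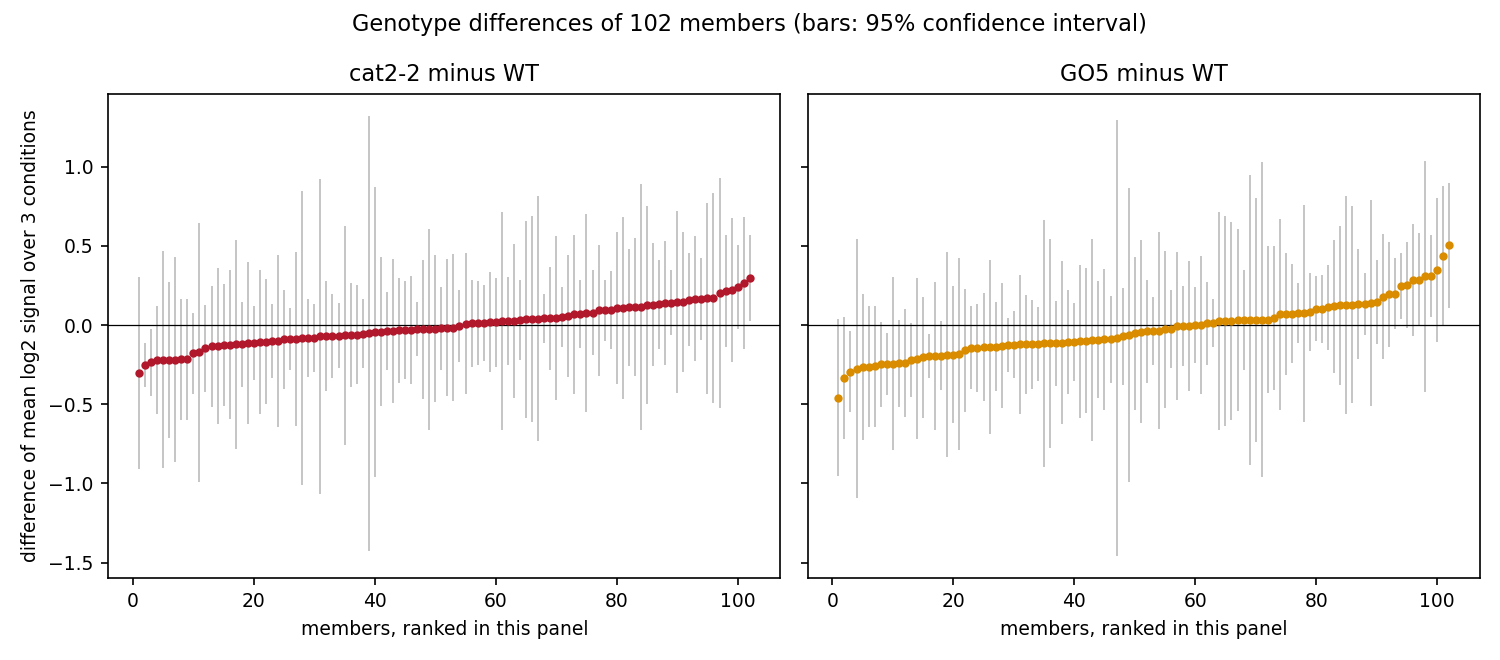
Difference in mean log2 signal over the 3 conditions (y axis, with 95% confidence interval) of cat2-2 minus WT and GO5 minus WT for the 102 members, ranked within each panel (x axis). Points run from -0.30 to 0.30 in cat2-2 and from -0.46 to 0.50 in GO5, and limma called none of them.

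Within single conditions the calls of members were confined to ambient CO2 at 8 h. At 0 h limma called 0 members in each of the 3 contrasts, against 0.00879% of all probe sets in each, and 0 members had an unadjusted p under 0.05, against 0.985%, 1.32% and 1.11% of all for cat2-2 minus WT, GO5 minus WT and GO5 minus cat2-2. At 8 h in high CO2 it called 0 members in each contrast, against 0.00879% of all for cat2-2 minus WT, 0.0132% for GO5 minus WT and 0.0176% for GO5 minus cat2-2. The members with an unadjusted p under 0.05 in high CO2 numbered 0, 0 and 2 in this order, against 4.04%, 2.51% and 4.28% of all.

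At 8 h in ambient CO2, limma called 6 members in GO5 minus WT, 2 higher and 4 lower, which is 5.88% of the members against 18.4% of all probe sets (8.59% higher and 9.85% lower). It called 1 member, lower, in cat2-2 minus WT, or 0.980% against 0.703% of all probe sets (0.189% lower). In GO5 minus cat2-2 it called 1 member, higher, or 0.980% against 8.2% of all (5.32% higher). A single call is no result about the members as a group. At an unadjusted p under 0.05 there were 20 members (19.6%) in GO5 minus WT, 6 (5.88%) in cat2-2 minus WT and 7 (6.86%) in GO5 minus cat2-2, against 31.1%, 14.2% and 20.8% of all in that order. For GO5 minus cat2-2 the replicate numbers pair the arrays, and with the number as a block within each condition limma called 10 members there (9.80%, against 13.1% of all probe sets). The same block gave 25 members in GO5 minus WT (24.5%, against 24.9% of all). WT deviated together with the other genotypes in every condition only for number 3. The arrays did not overlap for any of the 8 calls. Over the members the arrays did not overlap for 20 (19.6%) in GO5 minus WT, 12 (11.8%) in cat2-2 minus WT and 14 (13.7%) in GO5 minus cat2-2, against 25.2%, 10.8% and 23.4% of all probe sets in that order. The 3' minus 5' difference of GAPDH was lower than in WT by 0.52 in cat2-2 and by 0.63 in GO5 at ambient CO2 (exact permutation p = 0.1 each, the smallest that 3 against 3 arrays allow). That of actin was higher than in WT, by 0.04 in cat2-2 and by 0.20 in GO5 (exact permutation p = 0.9 and 0.7). The part of GAPDH in these calls was tested only as a covariate, which gave 10 calls in GO5 minus WT. The share over all probe sets in that fit is not given here, so nothing about the members is read from this count.

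AT2G39920, the HAD acid phosphatase, read 6.66, 6.52 and 6.93 in cat2-2 and 6.75, 6.63 and 6.66 in GO5 at ambient CO2, against 7.28, 6.95 and 7.39 in WT. The WT arrays lay above all others, and the difference was -0.50 ± 0.12 log2 units in cat2-2 minus WT (limma adjusted p = 0.0467) and -0.52 ± 0.12 in GO5 minus WT (limma adjusted p = 0.00343). In high CO2 the same gene read 6.98, 6.75 and 6.81 in cat2-2 and 6.94, 6.84 and 6.89 in GO5, against 6.92, 6.95 and 6.90 in WT. WLIM2a, a LIM protein that binds actin filaments, read 8.55, 8.13 and 8.38 in GO5 at ambient CO2, against 9.28, 8.78 and 8.89 in WT. The GO5 arrays lay below all WT arrays, by -0.63 ± 0.18 on average (limma adjusted p = 0.0185).

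AT1G53035 read 8.10, 7.76 and 6.87 in GO5 at ambient CO2, against 8.84, 8.53 and 8.17 in WT, a difference of -0.94 ± 0.32 (limma adjusted p = 0.0460). Without GO5 ambient replicate 3 it was -0.58, and it lost its call in 16 of the 27 fits that left out 1 array. AT4G30660, of the low temperature and salt type, read 10.38, 10.04 and 10.16 in GO5, against 10.94, 10.38 and 10.65 in WT, a difference of -0.46 ± 0.16 (limma adjusted p = 0.0494). The 2 members that were higher in GO5 have no paired gene: 260753_at differed from WT by 0.78 ± 0.22 (limma adjusted p = 0.0152) and 263128_at by 0.96 ± 0.33 (limma adjusted p = 0.0460), a call lost in 19 of those 27 fits. For 260753_at the GO5 arrays read 7.39, 7.33 and 7.15, against 6.35, 6.39 and 6.95 in cat2-2 and 6.35, 6.77 and 6.40 in WT. The number of calls in GO5 minus WT depended on single arrays. It was 1 without WT ambient replicate 1 and 1 without GO5 ambient replicate 2. It was 11 without WT ambient replicate 2, the array with the largest GAPDH difference. It was 3 without each of cat2-2 ambient replicate 1, cat2-2 ambient replicate 2, GO5 ambient replicate 3, WT high CO2 replicate 2 and GO5 high CO2 replicate 2. How the calls over all probe sets moved in these fits is not given here, so these counts are not read as particular to the members. AT2G39920 in GO5 minus WT passed without any 1 of the 27 arrays, whereas in cat2-2 minus WT it lost its call in 22 of these 27 fits, and 260753_at in GO5 minus cat2-2 lost its call in 10.

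The spread between replicates of the members was wider than that of most probe sets and had an order in it that the rule did not use. The median standard deviation within groups ran from 0.23 to 0.42 log2 units over the members and from 0.12 to 0.24 over all probe sets. After the data had been seen, each array was set against the mean of its group. The median deviation of the members in replicate 3 was 0.14 in cat2-2, 0.26 in GO5 and 0.20 in WT at 0 h. At 8 h in high CO2 it was -0.32 in cat2-2, -0.34 in GO5 and -0.14 in WT, and in ambient CO2 it was -0.13, -0.24 and -0.10 in the same order. The median over all probe sets, in which upward and downward deviations can cancel, deviated by at most 0.051 on any array. Replicate 3 thus stood high at 0 h and low at 8 h for the members as a group in each genotype.

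**Figure D5:**
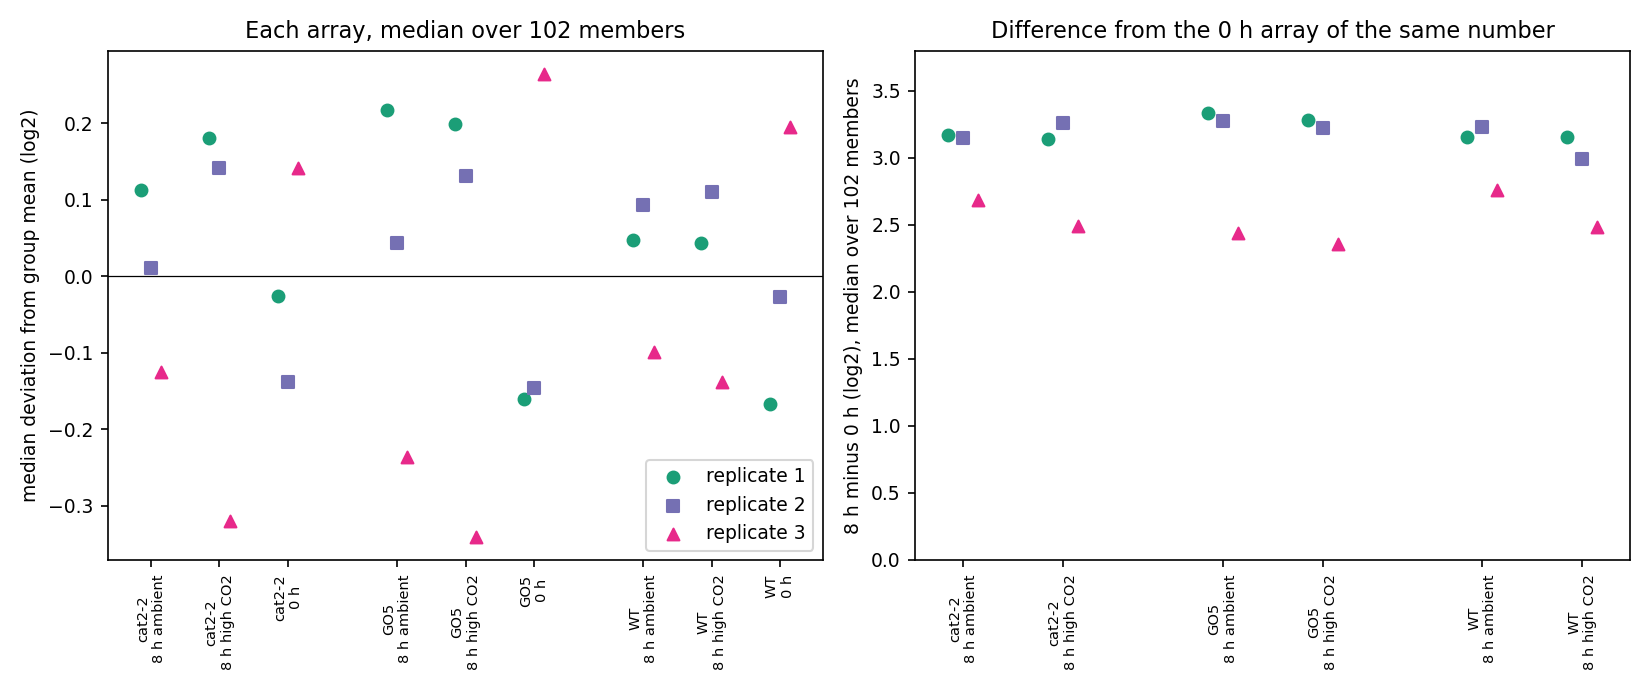
Left, the median deviation over the 102 members from the group mean (y axis, log2 units) for each of the 27 arrays by group, with a colour and shape per replicate number. Right, the median difference over the members between each 8 h array and the 0 h array of the same number, where replicate 3 is the lowest in each pair of groups, between 2.36 and 2.76.

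The median difference over the members between the 8 h and 0 h arrays of the same number was smallest in replicate 3 in each genotype. The labels do not state that a number links the arrays of 0 h and 8 h, and such a link was assumed here, not checked. Its median over the members in high CO2 was 3.14, 3.26 and 2.49 in cat2-2, 3.28, 3.22 and 2.36 in GO5, and 3.15, 2.99 and 2.48 in WT for replicates 1, 2 and 3. In ambient CO2 it was 3.17, 3.15 and 2.68 in cat2-2, 3.33, 3.28 and 2.44 in GO5, and 3.15, 3.23 and 2.76 in WT. Replicate 3 gave the smallest difference in all 3 genotypes for 64 of the 102 members in high CO2 and for 52 in ambient CO2. Among the 56 probe sets that fell by at least 2 in every genotype within the same CO2 limit, the median change was also smallest in replicate 3 in 5 of the 6 pairs of groups, so this is not particular to the members. These counts share the same 9 arrays per condition or pair, so the members are not independent, and no test was made.

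The members divided by where replicate 3 stood apart. At 0 h replicate 3 was the highest array in all 3 genotypes for 45 members (44.1%, against 19.7% of all probe sets), among them GI, PWD, DPE1, PORB and PDC2, and the lowest for 21 (20.6%, against 16.0%), among them CCL and AT3G47160. At 8 h in high CO2 it was the lowest array in all 3 genotypes for 59 members (57.8%, against 8.98%), and at 8 h in ambient CO2 for 40 (39.2%, against 6.50%). Of the 45 members with a high replicate 3 at 0 h, 35 also had the low replicate 3 at 8 h in high CO2 and 10 did not. GI, DPE1, PORB and WLIM2a were among the 10. Another 24 had the low replicate 3 at 8 h in high CO2 without a high one at 0 h, COR28 and AT1G17665 among them, and 33 had neither. The 21 members with replicate 3 lowest at 0 h all lie within these 24 and 33. CCL is among the 24, and AT3G47160 and AT1G70820 are among the 33, so the 33 are not free of a replicate 3 that stands apart.

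The sizes of these deviations differed widely between members, and of the 4 members given next all but COR28 were chosen after their values were seen. PDC2, a pyruvate decarboxylase, read 6.11, 5.84 and 7.98 at 0 h in cat2-2, 5.60, 5.61 and 7.77 in GO5, and 5.93, 6.24 and 7.81 in WT, so that replicate 3 exceeded the mean of the other two by 1.97 log2 units on average. AT1G70820, a phosphoglucomutase-like protein, went the other way, with 7.67, 7.58 and 5.35 at 0 h in cat2-2, 7.36, 7.16 and 5.88 in GO5, and 7.35, 7.67 and 5.41 in WT, a mean of -1.92. COR28 differed in replicate 3 by 0.05 at 0 h, by -2.53 at 8 h in high CO2 and by -1.59 at 8 h in ambient CO2. The unpaired probe set 257985_at differed by 0.68 at 0 h and by -3.25 at 8 h in high CO2, where its replicate 3 read 5.31 in cat2-2, 5.12 in GO5 and 5.30 in WT.

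In 20 members replicate 3 exceeded the other two by 1 log2 unit or more at 0 h on average over the genotypes, against 1.00% of all probe sets. In 16 members it lay at least 1 log2 unit below them at 8 h in high CO2, against 0.827% of all. AT1G56300 and AT2G39920 differed in replicate 3 by less than 0.1 log2 units at 0 h and at 8 h in high CO2, so wide differences between 8 h and 0 h were found with and without such a replicate. The labels name no batch or harvest date for the replicate numbers, and what sets replicate 3 apart was not tested. With all 9 arrays numbered 3 left out, 114 probe sets met the rule.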

How the data were processed

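RNA from whole rosettes was hybridised to 27 arrays of 22810 probe sets, 64 of them controls. Per the labels' protocols, total RNA of 2 rosettes per sample was labelled with a GeneChip 3' IVT Express kit. The values that the authors deposited are log2 signals between 1.61 and 13.6. Per the submitters' processing notes RMA, GCRMA and affy in R 2.15.0 were used, and which of RMA and GCRMA made the values was not settled. The number of arrays limits the precision.

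Groups came from the sample labels. The members and the gene lists were chosen with earlier results of these data known. A linear model with a mean for each of the 9 groups was fitted to the 27 arrays together (limma 3.58.1, R 4.3.3), with default empirical Bayes settings. Tests were two-sided, with Benjamini-Hochberg adjustment within each of 12 genotype contrasts over 22746 probe sets, and an adjusted p under 0.05 was a call. In this balanced design the errors of the 3 contrasts averaged over conditions are uncorrelated with those of the differences that chose the members, but the limits of the rule still bear on which probe sets could be members.

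The reference table paired 13513 probe sets with 1 gene, 503 with several and 8730 with none. Named genes were, among members with 1 gene, the largest mean differences between 8 h and 0 h, list members, called members, those next to the limits of the rule, and the highest and lowest signals, and others are said to be chosen after their values were seen. Gene order came from the TAIR10.1 annotation, and no coordinates or sequences were used.

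Same-numbered arrays of GO5 and cat2-2 deviated together from their group means over all probe sets in every condition (r between 0.295 and 0.778). Against WT, r fell to -0.22 for numbers 1 and 2, while for number 3 it lay between 0.249 and 0.797. Between genotypes the numbers were therefore taken to pair GO5 with cat2-2 only, a pairing that the labels do not state. Number 3 of WT deviated together with number 3 of both other genotypes in every condition. On simulated data for GO5 minus WT at ambient CO2, with 22746 probe sets, the fit recovered 76 of 100 changes of 1 log2 unit and 98 of 100 of 2 log2 units. The changes were planted in probe sets drawn from the whole array, with independent noise. The median standard error of this contrast was 0.321 over the members and 0.151 over all probe sets, so these shares do not carry over to the members. Alternatives were other normalizations, variance settings, filters, arrays, blocks and limits of the rule.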

Additional observations from a re-analysis of the deposited data

Results flagged for a closer look

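For 28 named members, 12 pairs of differences between groups were searched for opposite directions, in which every array of a group lay on 1 side of the mean of its comparison group and every array of the other pair on the opposite side. This definition was settled after the data had been seen, and it gave 11 cases in 8 members. Subtracting same-numbered arrays gave 15 cases in 10 members, and requiring every array to differ from every array gave 0. None of these differences between differences was tested, and with so many pairs searched some cases may arise by chance.

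Ambient minus high CO2 at 8 h was -0.21 in GO5 and 0.28 in WT for AT2G39920, a difference of -0.49 log2 units. GI changed by 0.48 in GO5 and by -0.21 in cat2-2, a difference of 0.69. AT1G53035 changed by -0.20 in cat2-2 and by 0.44 in WT, a difference of -0.64.

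Between genotypes, cat2-2 minus WT was -0.35 at ambient and 0.22 at high CO2 for WLIM2a (-0.57 apart), and -0.26 and 0.21 for AT1G67660 (-0.47 apart). For AT4G33490, cat2-2 minus WT was -0.38 at ambient and 0.10 at 0 h (-0.48 apart), and GO5 minus WT -0.58 and 0.37 (-0.95 apart). GO5 minus cat2-2 was 0.44 at high CO2 and -0.34 at 0 h for AT5G25210 (0.79 apart), and 0.23 at ambient (0.58 apart from 0 h). For AT4G29610, GO5 minus cat2-2 was 0.38 at ambient, against -0.25 at 0 h (0.63 apart) and -0.49 at high CO2 (0.87 apart). WT ambient replicate 1, the array with the lowest mean correlation with its group, enters each case that uses WT at ambient CO2.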

How the results depend on the processing

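The count of 102 members was 180 with a limit of 1.5 on the 8 h minus 0 h difference, 66 with 2.5, and 54 with a CO2 limit of 0.5. Quantile normalization gave 99, median centring 96, group medians 106 and a CO2 limit of 1.5 gave 109, and leaving out 1 array at a time gave 92 to 104. Leaving out all arrays numbered 3, added after the data had been seen, gave 114. The 64 members with the smallest difference in replicate 3 were 62 after quantile normalization and 65 after median centring.

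For cat2-2 minus WT at ambient CO2 the 1 call became 0 with quantile normalization, median centring, trend and robust variances, only the arrays compared, and without the 9 arrays numbered 3. The 6 calls in GO5 minus WT at ambient CO2 became 0 with only the arrays compared. The 1 call in GO5 minus cat2-2 became 0 with median centring and with only the arrays compared. Fitting only the arrays compared leaves 6 arrays to estimate the spread, and the causes of the other changes were not tested. Among settings added after the data had been seen, GO5 minus WT at ambient CO2 gave 10 with the GAPDH difference as a covariate, 2 without WT ambient replicate 1 and cat2-2 ambient replicate 3 and 14 without the arrays numbered 3. Of these settings, 2 gave 3 calls in GO5 minus cat2-2 and 1 left it at 1. The difference averaged over conditions gave 2 in GO5 minus WT with the GAPDH covariate. The calls over all probe sets in these settings are not given here, so the counts are not read as results about the members.

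With the replicate number as a replicate block, limma called 1 member in cat2-2 minus WT at ambient CO2, 7 in GO5 minus WT, 4 of them shared with the 6, and 1 in GO5 minus cat2-2. Shares of all probe sets for this block are not given here, so nothing about the members is read from its counts. A block within each condition, added after those counts were seen, gave 1 (0.980%, against 1.60% of all probe sets), 25 (24.5%, against 24.9%) and 10 (9.80%, against 13.1%), and 4 in GO5 minus WT averaged over conditions (3.92%, against 6.87%). WT arrays deviated together with same-numbered arrays of the other genotypes in every condition only for number 3. The block changed no other count of calls.

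Leaving out 1 array at a time gave 0 to 5 calls in cat2-2 minus WT, 1 to 11 in GO5 minus WT and 0 to 2 in GO5 minus cat2-2 at ambient CO2, and 0 to 1 in GO5 minus WT averaged over conditions. The other counts stayed at 0 (0 to 0) in each of these fits. The value in GO5 minus WT averaged over conditions was 1 without WT ambient replicate 2 and without WT ambient replicate 3. Shares of all probe sets in the fits without 1 array are not given here, so nothing about the members is read from these counts. AT2G39920 in GO5 minus WT lay between -0.65 and -0.43 and kept its call in these fits, whereas AT1G53035 (-1.20 to -0.58) lost its call in 16, 263128_at (0.69 to 1.22) in 19 and AT4G30660 (-0.60 to -0.32) in 20 of the 27 fits. No difference reversed. Low signal limits the values at 0 h, where 20 members averaged under 4. Promoter motif alternatives were not run, since no promoter sequences were used.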
